A study of Homo sapiens with 6 samples.

Results

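Aminoacyl-tRNA synthetases are the enzymes that join each amino acid to its transfer RNA. The 36 genes described here were chosen by name from the 54261 gene rows of the count table, and all 36 were found. Of these, 20 encode cytosolic enzymes and 16, whose names end in 2, encode mitochondrial enzymes. The cells were A549, an established human lung adenocarcinoma line, and the measurement was RNA sequencing of total RNA. In 3 libraries the cells had received siRNA targeting SNHG17, a long noncoding RNA (si-SNHG17), and in 3 they had received a control siRNA (si-NC), and no other genotype or agent is named. The labels give no time, dose or siRNA sequence, and nothing in them states that replicates were separate cultures. The p-values therefore reflect variation among these 6 libraries, part or all of which may be technical.

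Each synthetase activates its amino acid with ATP and transfers it to the end of the matching tRNA, so that the ribosome reads codons correctly. The enzymes fall into class I and class II by the fold of the catalytic domain. In the cytosol several of them sit in the multisynthetase complex, held by scaffold proteins, and mitochondria use a separate, nuclear-encoded set to translate the few proteins of the mitochondrial genome. GARS and KARS are exceptions, since each gene makes both a cytosolic and a mitochondrial form. When an amino acid runs short, uncharged tRNA activates the kinase GCN2, translation of the transcription factor ATF4 rises, and ATF4 induces amino acid synthesis, transport and many cytosolic synthetase genes.

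The libraries held 8643076 to 12477214 counts, and the first principal component, with 63.9% of the variance, separated the groups. Within si-NC, replicate 3 stood apart: the chi-square of its counts per degree of freedom was 8.85 against replicate 1 and 8.4 against replicate 2, where replicates 1 and 2 gave 2.25 and pairs across the groups 38.4 to 55.3. SNHG17, the targeted gene, measured 7.82, 8.39 and 11.3 CPM in si-SNHG17 and 38.7, 36.2 and 51.4 CPM in si-NC, where CPM is counts per 1000000 scaled counts. Its level was 21.8% of the control mean (log2 fold change -2.21, SE 0.17, adjusted p = 2.84e-07 by edgeR), and a two-sided exact permutation test gave p = 0.1, the minimum with 3 against 3. All 9 markers of epithelial cells or of A549 were detected, EPCAM at only 6 to 16 counts a library. Their summed level was 12919 to 13568 CPM in si-SNHG17 and 20905 to 22725 CPM in si-NC. Of the 9, 6 fell and 2 rose (88.9% called, where 39.1% of all genes tested were), and EPCAM did not pass. The enzymes ALDH1A1 (mean 5856 CPM in si-NC, 2110 in si-SNHG17) and AKR1B10 (2945 and 1154) were among those that fell. The keratins KRT7 and KRT19 rose, so the sum does not describe every marker. Of 8 immune markers, PTPRC and CD3E had no count in any library, and the summed level was 499 to 598 CPM against 213 to 298 CPM. Of 10 stromal and endothelial markers, COL1A2 and COL3A1 were at 0, and the sum was 67.3 to 79.0 CPM against 75.3 to 91.6 CPM. Only 3 had enough counts to be tested, and they made up most of the sum. THY1 fell (mean 15.5 CPM in si-SNHG17, 21.9 in si-NC), while COL1A1 (25.3 and 24.3) and ACTA2 (31.0 and 34.5) did not pass (33.3% called). The 37 mitochondrially encoded rows took 4.17% to 4.54% of counts in si-SNHG17 and 7.26% to 8.08% in si-NC. Their part in the changes of synthetase genes was not tested. In bulk RNA, fewer cells expressing a gene and less RNA per cell cannot be told apart.

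Synthetase genes fell more often than they rose in si-SNHG17. Of the 35 with enough counts to be tested, 16 fell, 3 rose and 16 did not pass an adjusted p of 0.05 by edgeR's quasi-likelihood test. That is 54.3% called, where 39.1% of all 15614 genes tested were called, 19.6% lower and 19.6% higher. Among the 9311 mRNA rows whose mean lay inside the synthetases' own range, 5.78 CPM (WARS2) to 288.0 CPM (KARS), 46.7% were called, 22.2% lower and 24.4% higher. The median log2 fold change was -0.25 for the 35 synthetases and 0.01 for all genes tested. The summed level of the 36 genes was 2934, 2932 and 2929 CPM in si-SNHG17 replicates 1 to 3 and 3417, 3421 and 3337 CPM in si-NC. These sums did not overlap. The groups did not overlap for 19 synthetases that were lower and 6 that were higher, where 24.3% of all genes were lower and 25.1% higher without overlap (49.4% in all).

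**Figure D1:**
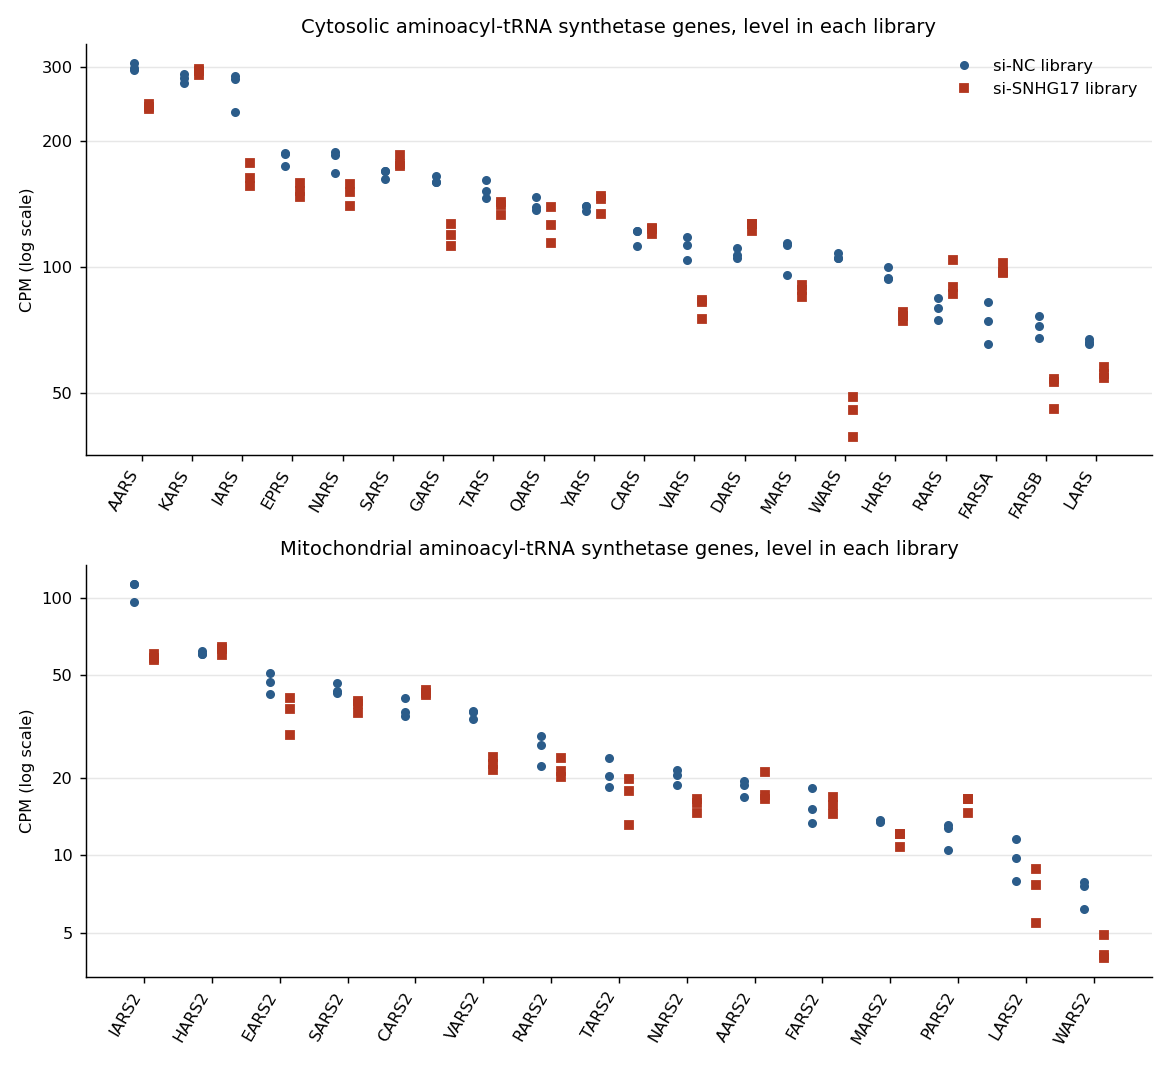
Level of the 35 tested synthetase genes in each of the 6 libraries, in CPM on a log axis, cytosolic genes above and mitochondrial genes below, ordered by the si-NC mean. WARS (39.3 to 49 CPM in si-SNHG17 against 105 to 108 in si-NC) and IARS2 (57.4 to 60.4 against 95.9 to 113) show the widest gaps between groups.

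The cytosolic and mitochondrial sets had like medians. Of the 20 cytosolic genes 11 fell, 2 rose and 7 did not pass (65.0% called), with a median of -0.25 and a range of -1.25 to 0.41 on the log2 scale. Of the 15 mitochondrial genes tested 5 fell, 1 rose and 9 did not pass, with a median of -0.26 and a range of -0.87 to 0.40. The 40.0% called of the mitochondrial set was about the 39.1% of all genes tested. It was under the 46.7% of mRNA rows inside the range of all synthetases, of which 22.2% were lower and 24.4% higher. That range reaches up to the cytosolic KARS (288.0 CPM), above IARS2, the highest mitochondrial gene (107.4 CPM in si-NC). Those rows are therefore not matched in level to the mitochondrial set. WARS was the only synthetase called at 2-fold or more. Among the 17 class I genes tested 9 fell and none rose, and among the 17 class II genes 6 fell and 3 rose. The share called was the same in each class, 52.9%, beside the 39.1% of all genes tested. EPRS, which joins an enzyme of each class, fell and is in neither count. The difference between the classes was not tested. The number called moved with the libraries used: 11 synthetases were called without si-NC replicate 1 or 2, 12 without si-SNHG17 replicate 1 or 2, 15 without si-SNHG17 replicate 3 and 20 without si-NC replicate 3. The 11 genes called in each of 15 alternative fits were AARS, GARS, HARS, IARS, VARS, WARS, FARSB, IARS2, VARS2 and WARS2, lower, and FARSA, higher.

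**Figure D2:**
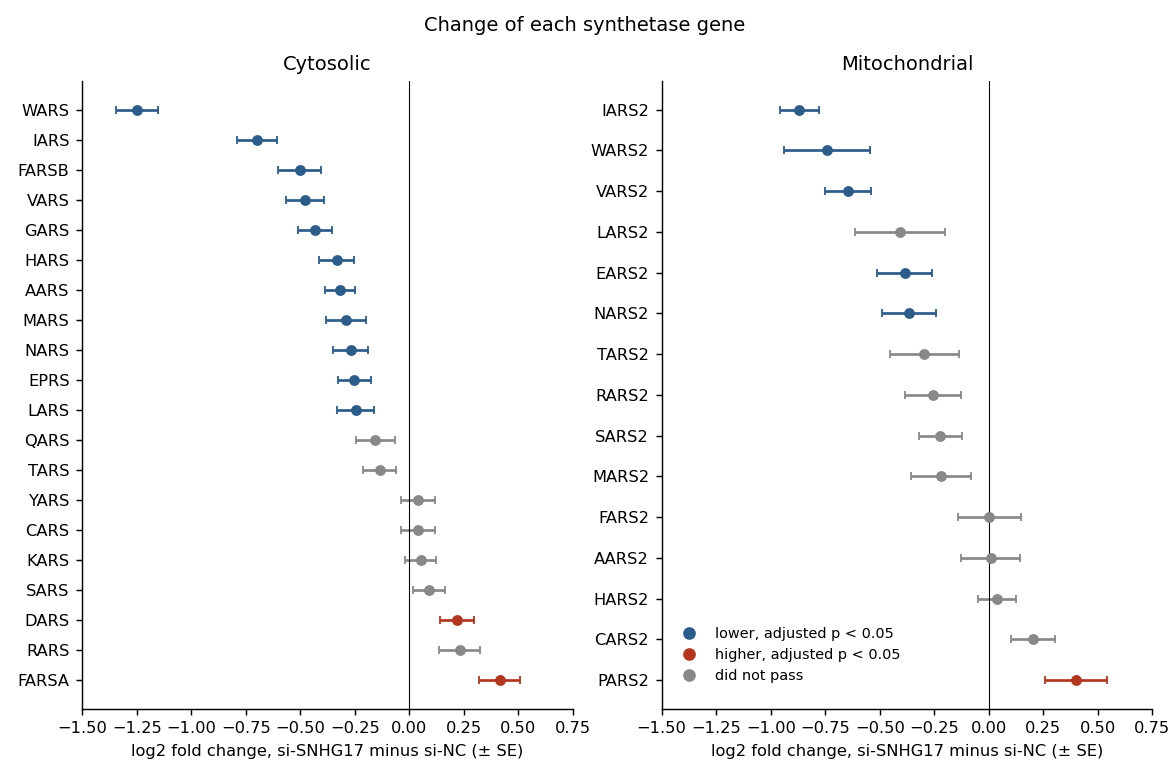
Log2 fold change (si-SNHG17 minus si-NC) of each tested synthetase gene with its standard error, cytosolic at left and mitochondrial at right. Points in blue (16 genes) were lower and points in red (3 genes) higher at an adjusted p under 0.05 by edgeR, and grey points (16 genes) did not pass.

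WARS had the largest change of any synthetase. It encodes the cytosolic tryptophanyl-tRNA synthetase, an enzyme known to be induced by interferon gamma, and lies on chromosome 14 from 100333788 to 100376805 on the minus strand (GENCODE 29, GRCh38). WARS measured 49, 39.3 and 45.6 CPM in si-SNHG17 replicates 1 to 3 and 105, 108 and 105 CPM in si-NC. The groups were wide apart, with means of 44.6 ± 4.92 and 105.9 ± 1.87 CPM (SD, n = 3), and si-SNHG17 stood at 42.2% of si-NC. On the log2 scale the change was -1.25 (SE 0.10, adjusted p = 3.23e-07 by edgeR). WARS shares 6.1% of its exon bases with AL157871.4 and 4.5% with WDR25, both on the opposite strand. Its mitochondrial counterpart WARS2, on chromosome 1, also fell, from 7.63, 6.21 and 7.87 CPM to 4.90, 3.99 and 4.10 CPM (log2 fold change -0.74, SE 0.20, adjusted p = 0.00884). WARS2 rested on 36 to 84 counts a library.

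The isoleucine and valine enzymes fell in both compartments. IARS, a member of the multisynthetase complex on chromosome 9, measured 177, 156 and 163 CPM in si-SNHG17 and 282, 287 and 235 CPM in si-NC (log2 fold change -0.70, SE 0.09, adjusted p = 3.46e-05). IARS2, its mitochondrial counterpart on chromosome 1, measured 58.6, 57.4 and 60.4 CPM against 113, 113 and 95.9 CPM (log2 fold change -0.87, SE 0.09, adjusted p = 5.68e-06). For both genes si-NC replicate 3 was the lowest control library and still lay above every si-SNHG17 library. VARS, the cytosolic valine enzyme, measured 82.4, 83.3 and 75.2 CPM against 104, 113 and 118 CPM (log2 fold change -0.48, SE 0.09). VARS2 measured 24.0, 22.6 and 21.4 CPM against 33.9, 36.1 and 36.3 CPM (log2 fold change -0.64, SE 0.10), and 22% of its annotated exon bases are shared with GTF2H4 on the same strand. The adjusted p was 0.000576 for VARS and 0.000257 for VARS2.

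Both subunits of phenylalanyl-tRNA synthetase changed, in opposite directions. The cytosolic enzyme is built from alpha subunits, encoded by FARSA on chromosome 19, and beta subunits, encoded by FARSB on chromosome 2. FARSA rose from 65.5, 74.2 and 82.6 CPM in si-NC to 96.9, 102 and 97.4 CPM in si-SNHG17 (log2 fold change 0.41, SE 0.09, adjusted p = 0.00331). FARSB fell from 67.6, 72.2 and 76.4 CPM to 53.9, 45.8 and 53.2 CPM (log2 fold change -0.50, SE 0.10, adjusted p = 0.000989). Neither gene's groups overlapped. The ratio of FARSA to FARSB CPM was 0.968, 1.03 and 1.08 in the si-NC libraries and 1.80, 2.23 and 1.83 in the si-SNHG17 libraries; this ratio was formed after the values were seen and is given without a test. The mitochondrial enzyme FARS2, a single chain, had 14.4, 15.7 and 16.9 CPM against 15.1, 13.4 and 18.2 CPM, and its groups overlapped (log2 fold change 0.00, SE 0.15).

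**Figure D3:**
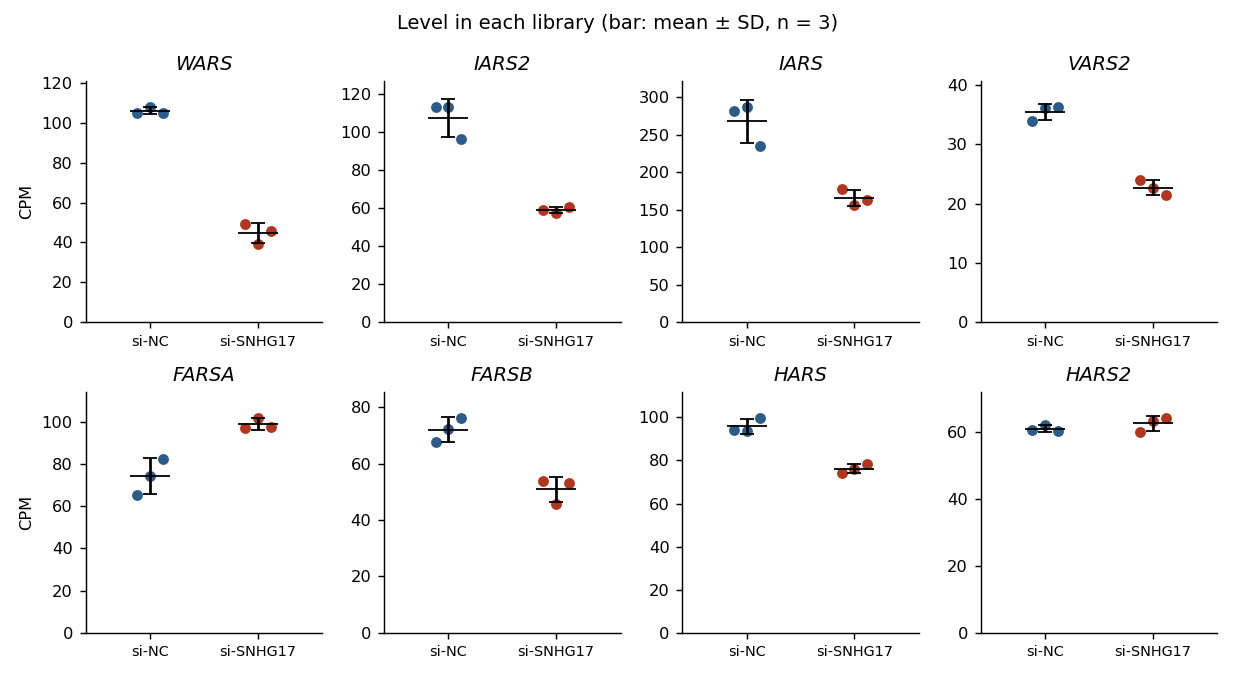
CPM of 8 synthetase genes in each library on linear axes that start at 0, with si-NC in blue, si-SNHG17 in red, and black bars for the mean ± SD (n = 3). FARSA is higher and FARSB lower in si-SNHG17, and HARS is lower while the HARS2 groups overlap.

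The genes for the histidine enzymes, HARS and HARS2, start from opposite strands of one short stretch of chromosome 5, and only the cytosolic gene passed the test. In the RefSeq promoter table (GRCh38.p14) HARS starts at 140691370 on the minus strand and HARS2 at 140691455 on the plus strand, with 84 bases between the starts. That stretch is shown on the plus strand, reading towards HARS2, because both genes are transcribed away from it when they use these starts; capitals mark 2 matches to the ETS-factor motif CCGGAAGT on either strand.
HARS-HARS2 interval chr5:140691371-140691454: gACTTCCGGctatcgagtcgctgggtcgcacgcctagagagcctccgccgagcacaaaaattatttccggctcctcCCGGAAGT
HARS measured 74.1, 76.2 and 78.2 CPM in si-SNHG17 and 94.0, 93.7 and 99.9 CPM in si-NC (log2 fold change -0.33, SE 0.08, adjusted p = 0.00501). HARS2 measured 60.1, 63.4 and 64.4 CPM against 60.6, 62.2 and 60.3 CPM (log2 fold change 0.04, SE 0.09, adjusted p = 0.761). The HARS groups were apart and the HARS2 groups overlapped. The ratio of HARS to HARS2 was 1.23, 1.20 and 1.21 in si-SNHG17 and 1.55, 1.51 and 1.66 in si-NC, formed after the values were seen and given without a test. GENCODE 29 also places a HARS start at 140691862 and a HARS2 start at 140691426, so some annotated transcripts run through the stretch. The genes share 437 exon bases on opposite strands, 5.6% of the HARS and 11.7% of the HARS2 exon bases. Without a stated use of strand, some reads could therefore belong to either. HARS2 also shares 4.1% of its exon bases with ZMAT2 on the same strand, and HARS 2.8% with WDR55 on the opposite strand.

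In the multisynthetase complex, 4 of the 8 enzyme genes fell, 1 rose and 3 did not pass (62.5% called), with a median of -0.20. Of all genes tested 39.1% were called, and of mRNA rows inside the synthetases' range 46.7%. Beside IARS, those that fell kept 81.7% to 84.3% of the control level. EPRS, which charges both glutamate and proline tRNAs, went from 187, 186 and 174 CPM in si-NC to 147, 152 and 159 CPM (log2 fold change -0.25, SE 0.08, adjusted p = 0.0171). MARS, the methionine enzyme, went from 114, 113 and 95.5 CPM to 88.0, 84.8 and 90.8 CPM (log2 fold change -0.29, SE 0.09, adjusted p = 0.0197). It shares 519 exon bases with ARHGAP9 and 355 with DDIT3, both on the opposite strand. LARS, the leucine enzyme and a known leucine sensor of the mTORC1 pathway, went from 66.1, 65.4 and 67.1 CPM to 54.4, 55.4 and 57.8 CPM (log2 fold change -0.25, SE 0.09, adjusted p = 0.0339). In each of these the groups were apart. DARS, the aspartate enzyme, rose from 111, 107 and 105 CPM to 122, 127 and 127 CPM (log2 fold change 0.22, SE 0.08, adjusted p = 0.0358). KARS, the lysine enzyme, had 288, 298 and 295 CPM in si-SNHG17 and 290, 283 and 276 CPM in si-NC, with overlapping groups (log2 fold change 0.05, SE 0.07). RARS (arginine) was at 0.23 with an adjusted p of 0.0661, and with groups apart, and QARS (glutamine) at -0.16 with overlapping groups.

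These smaller calls were lost in several fits, while the log2 fold changes kept their direction (EPRS -0.29 to -0.21, MARS -0.37 to -0.25, LARS -0.28 to -0.21 and DARS 0.19 to 0.26 over 15 alternatives). By edgeR, the adjusted p for EPRS ran from 0.0557 to 0.0844, and that for MARS from 0.0625 to 0.0844, without si-SNHG17 replicate 1 or 2 or si-NC replicate 1 or 2. LARS lost its call without any library except si-NC replicate 3 (adjusted p = 0.058 to 0.117), with library totals only (0.0664), with DESeq2 (0.0756, on 29410 genes with its own filter) and with no low-count filter (0.114). DARS lost its call without any library except si-NC replicate 3 (0.0597 to 0.115), with no low-count filter (0.0713) and with mRNA rows only (0.0573). RARS passed with library totals only (0.0367).

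Outside the complex, 7 of 12 cytosolic genes fell and 1 rose (66.7% called), with a median of -0.29. That share was near the 62.5% of the complex, where 39.1% of all genes tested were called. The same share was 46.7% for mRNA rows inside the synthetases' range, and the difference from the complex was not tested. GARS, the glycine enzyme on chromosome 7, measured 127, 119 and 112 CPM in si-SNHG17 and 160, 160 and 165 CPM in si-NC (log2 fold change -0.43, SE 0.08, adjusted p = 0.000587). AARS, the alanine enzyme on chromosome 16, measured 245, 241 and 239 CPM against 308, 296 and 299 CPM (log2 fold change -0.32, SE 0.07, adjusted p = 0.00252). For both the replicates of a group lay close together and the groups were apart. NARS, the asparagine enzyme, measured 151, 140 and 158 CPM against 188, 185 and 168 CPM (log2 fold change -0.27, SE 0.08, adjusted p = 0.0176). The NARS call was lost without si-SNHG17 replicate 1 or 2 or si-NC replicate 1 or 2 (adjusted p = 0.054 to 0.0902 by edgeR).

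The remaining cytosolic genes did not pass, and their log2 fold changes lay between -0.14 and 0.09. SARS, the serine enzyme, had 176, 185 and 174 CPM in si-SNHG17 and 162, 170 and 170 CPM in si-NC. TARS, the threonine enzyme, had 133, 143 and 141 CPM against 146, 161 and 152 CPM. The groups were apart for both, upward for SARS (log2 fold change 0.09, SE 0.07) and downward for TARS (-0.14, SE 0.08). YARS, the tyrosine enzyme, had 148, 134 and 145 CPM against 140, 140 and 136 CPM, with overlapping groups (0.04, SE 0.08), and CARS, the cysteine enzyme, was also at 0.04 with overlapping groups.

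Of the mitochondrial enzymes beyond IARS2, VARS2 and WARS2, 2 fell and 1 rose. EARS2 attaches glutamate in mitochondria, also to the glutamine tRNA, where an amidotransferase then converts it. It measured 37.0, 40.7 and 29.3 CPM in si-SNHG17 and 51.2, 46.9 and 42.3 CPM in si-NC (log2 fold change -0.39, SE 0.13, adjusted p = 0.025). NARS2, the asparagine enzyme, measured 14.6, 15.9 and 16.6 CPM against 20.5, 21.4 and 18.8 CPM (log2 fold change -0.36, SE 0.12, adjusted p = 0.0316). PARS2, the proline enzyme, rose from 12.8, 13.1 and 10.5 CPM to 14.6, 16.6 and 16.6 CPM (log2 fold change 0.40, SE 0.14, adjusted p = 0.0399). In all 3 the groups were apart. By edgeR, EARS2 lost its call without si-SNHG17 replicate 1 or 3 or si-NC replicate 1 or 2 (adjusted p = 0.0578 to 0.117), and NARS2 without si-SNHG17 replicate 1 or 2 or si-NC replicate 1 or 2 (0.068 to 0.12), with library totals only (0.0525) and with no low-count filter (0.0718). PARS2 lost its call without any library except si-SNHG17 replicate 1 (0.0556 to 0.111), and both NARS2 (0.0923) and PARS2 (0.0901) lost theirs with DESeq2.

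The other 9 tested mitochondrial genes did not pass, FARS2 and HARS2 among them. LARS2 was at -0.41, TARS2 at -0.30, RARS2 at -0.26, SARS2 at -0.22 and MARS2 at -0.22, while AARS2 was at 0.01 and CARS2 at 0.20. Leaving out si-NC replicate 3, edgeR gave LARS2 an adjusted p of 0.0376 and CARS2 one of 0.0374. SARS2 passed with mRNA rows only (adjusted p = 0.0471), and 46.2% of its exon bases are shared with the gene model AC011455.2 on the same strand. YARS2, the tyrosine enzyme, had 0, 1 and 2 counts in si-SNHG17 and 2, 1 and 3 counts in si-NC, at or under the 3 counts that a count of 0 allows, so no fold is given. Whether the counting step lost reads of this gene was not tested.

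Set side by side by amino acid, the cytosolic and mitochondrial genes formed 17 pairs, counting EPRS and FARS2 in 2 pairs each. Both members fell in 5 pairs, which were those for isoleucine, valine, tryptophan, asparagine and glutamate. In 5 further pairs only the cytosolic gene passed, downward: alanine (AARS -0.32, AARS2 0.01), histidine, leucine, methionine and the FARSB pair. The proline pair held opposite calls, EPRS lower and PARS2 higher. FARSA rose beside FARS2, and in the cysteine, arginine, serine and threonine pairs neither gene passed. A gene past the threshold beside one that is not does not show that they differ, and the difference within pairs was not tested.

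**Figure D4:**
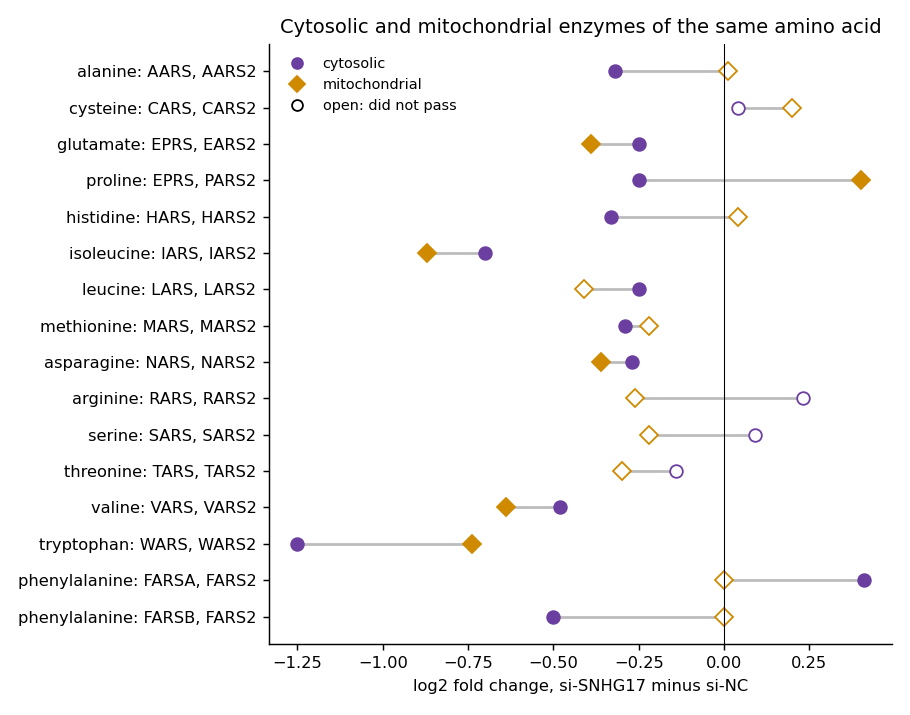
Log2 fold changes (si-SNHG17 minus si-NC) of the cytosolic (circles) and mitochondrial (diamonds) enzymes for each amino acid; filled symbols passed an adjusted p of 0.05 by edgeR and open symbols did not, and the untested YARS2 pair is left out. Tryptophan (-1.25 and -0.74), isoleucine (-0.70 and -0.87) and valine (-0.48 and -0.64) have both members to the left of the other pairs with 2 calls.

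Levels divided by the longest protein-coding transcript in GENCODE 29 allow genes to be set beside each other. The order of the genes rests on that choice of length. In si-NC, the highest cytosolic levels per kilobase were those of KARS (117 CPM per kilobase), SARS (89.0) and AARS (86.6), and the lowest was that of LARS (13.9). The highest mitochondrial levels were those of IARS2 (30.2), HARS2 (24.3) and SARS2 (21.5), and the lowest among tested genes those of WARS2 (2.57) and LARS2 (2.06). In si-SNHG17 WARS went from 34.2 to 14.4 CPM per kilobase and IARS2 from 30.2 to 16.5. The summed mitochondrial set took 386, 402 and 376 CPM in si-SNHG17 and 482, 482 and 464 CPM in si-NC, and the summed cytosolic set 2548, 2530 and 2554 CPM against 2935, 2939 and 2873 CPM. Neither pair of sums overlapped.

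Promoters, from 250 bases before to 50 after the RefSeq start, were found for 30 of the 36 genes, with every start in the table used; DARS, LARS, VARS, YARS, AARS2 and VARS2 had no entry. They were searched on both strands for 6 motifs. The ETS motif CCGGAAGT was in 8 of the 30 (26.7%, against 6.97% of 15843 protein-coding genes with an entry), in CARS, HARS, NARS, TARS, WARS, EARS2, HARS2 and PARS2. HARS and HARS2 hold the same 2 matches, in the stretch between their starts, and are counted separately. The YY1 motif AAGATGGCG was in 5 (16.7%, against 3.21%), the MYC E-box CACGTG in 4 (13.3%, against 10.9%) and the NRF1 palindrome in 1 (3.3%, against 1.99%). The ATF4 composite element TGATGNAAT was in 2 (6.7%, against 0.88%) and the core of the interferon-stimulated response element in 2 (6.7%, against 4.16%). The motif holders included genes that fell, genes that rose and genes that did not pass. Windows of 10 bases around a match, in capitals, are shown for the genes with the ATF4 element, since ATF4 is the known inducer of this family, and for WARS, the largest fall, with its interferon-type match, which lies before the second of its RefSeq starts. A match describes letters and not a bound site.
GARS, ATF4 element, plus strand, chr7:30594834-30594862: ttacgcggcgATTTCATCAtgctccgagc
TARS, ATF4 element, plus strand, chr5:33440956-33440984: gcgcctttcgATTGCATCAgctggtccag
WARS, interferon-type motif, minus strand, chr14:100375383-100375412: tttcagaaggGAAACTGAAAgaaagagggg
Of these genes GARS and WARS fell, and TARS did not pass.

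Genes related to the synthetases by role, or as known targets of ATF4, were taken as 8 lists. Their shares called are read against the 39.1% of all genes tested and the 46.7% of mRNA rows of like level to the synthetases. Of the 3 scaffold genes of the multisynthetase complex, AIMP1 fell from 43.4 ± 3.58 to 33.5 ± 2.00 CPM (SD, n = 3; log2 fold change -0.37, adjusted p = 0.0114), while AIMP2 (0.10) and EEF1E1 (0.05) did not pass. The AIMP1 call was lost without si-SNHG17 replicate 1 (adjusted p = 0.0618 by edgeR) or si-NC replicate 1 (0.059), and EEF1E1 turned to -0.02 and -0.04 in the same fits. Of 6 genes for cytosolic elongation factors and their subunits, 2 rose and none fell (33.3% called, under the 39.1% of all genes). EEF2, the translocation factor, went up from 2407 ± 241 to 3721 ± 88.8 CPM (SD, n = 3; log2 fold change 0.63, adjusted p = 3.26e-05), and EEF1A2 rose by 0.39. EEF1D (0.15) and EEF1G (0.13) did not pass, though EEF1D passed without si-NC replicate 3 (log2 fold change 0.21, adjusted p = 0.0115).

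Mitochondrial translation factors were mostly uncalled. Of 13 such genes, with the glutamine amidotransferase subunits and the methionyl-tRNA formyltransferase among them, 1 fell, 1 rose and 11 did not pass, a share called of 15.4%, under the 39.1% of all genes. The elongation factor GFM1 fell from 39.0 ± 6.07 to 27.1 ± 1.83 CPM (log2 fold change -0.52), and the initiation factor MTIF3 rose by 0.45, a call lost without si-NC replicate 2 (adjusted p = 0.0762 by edgeR). MTFMT was at 0.28 and GATB at -0.39, neither past the threshold. Of 5 proofreading and synthetase-like genes tested, DTD1, which removes D-amino acids from tRNA, fell by 0.74 on the log2 scale (adjusted p = 0.0472). That call was lost without any library except si-NC replicate 3 (adjusted p = 0.0835 to 0.202 by edgeR), with library totals only (0.0586), limma-voom (0.0565), DESeq2 (0.161) and no low-count filter (0.0739). TARSL2 (0.39), DTD2 (0.28) and RIDA (-0.45) did not pass. RIDA passed with limma-voom (adjusted p = 0.0499), with no low-count filter (0.0248), with mRNA rows only (0.0397) and without si-SNHG17 replicate 3 (0.0216) or si-NC replicate 2 (0.0454).

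Among 22 tRNA processing genes, 6 fell, 3 rose and 13 did not pass, and the 40.9% called was about the 39.1% of all genes. The mitochondrial RNase P, which frees mitochondrial tRNAs from their precursors, had 2 subunits that fell. KIAA0391, its nuclease subunit, fell from 22.7 ± 1.29 to 7.29 ± 1.14 CPM (SD, n = 3; log2 fold change -1.64, adjusted p = 1.41e-06), and HSD17B10 fell from 87.7 ± 11.1 to 35.4 ± 1.70 CPM (log2 fold change -1.31). The other subunit, the methyltransferase TRMT10C, named after its value was seen, rose by 0.39 (adjusted p = 0.0215). POP5, a subunit of nuclear RNase P, fell by 1.30 on the log2 scale, and TSEN15, of the tRNA splicing endonuclease, fell by 0.78. Of 6 genes of the selenocysteine route, which remodels serine already joined to its tRNA, SECISBP2 rose (0.54) and SEPHS1 fell (-0.34), while SEPSECS (0.20) and SEPHS2 (0.12) did not pass.

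Genes that sense uncharged tRNA and relay the stress response went both ways. Of 15 tested, 3 rose, 3 fell and 9 did not pass, with a median of -0.01; the 40.0% called was about the 39.1% of all genes. The phosphatase subunit PPP1R15A rose from 54.9 ± 7.77 to 128.0 ± 1.83 CPM (SD, n = 3; log2 fold change 1.22, adjusted p = 5.79e-07) and PPP1R15B rose by 0.69. The exchange factor subunit EIF2B3 fell from 18.4 ± 1.38 to 7.98 ± 0.68 CPM (log2 fold change -1.21), and the heme-regulated kinase EIF2AK1 fell by 0.45. Named after their values were seen, ATF4 mRNA rose by 0.32 (adjusted p = 0.0105), and EIF2AK4, which encodes GCN2, was at -0.01 (SE 0.22). ATF4 is controlled largely at translation, which mRNA levels do not measure.

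Of 24 ATF4 targets other than synthetases, 7 rose, 7 fell and 10 did not pass (58.3% called, above the 39.1% of all genes), with a median of 0.04 beside -0.25 for the cytosolic synthetases. The serine synthesis enzyme PSAT1 fell from 104.9 ± 11.5 to 29.8 ± 5.0 CPM (SD, n = 3; log2 fold change -1.82, adjusted p = 1.14e-07). SLC7A5, a transporter of large neutral amino acids, fell from 685.3 ± 58.3 to 305.1 ± 15 CPM (log2 fold change -1.17). The secreted glycoprotein STC2 rose from 106.1 ± 7.80 to 225.1 ± 5.85 CPM (1.08 on the log2 scale), and the stress factor ATF3 from 8.89 ± 0.09 to 25.3 ± 2.31 CPM (log2 fold change 1.51). The groups were apart for all 4 genes.

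**Figure D5:**
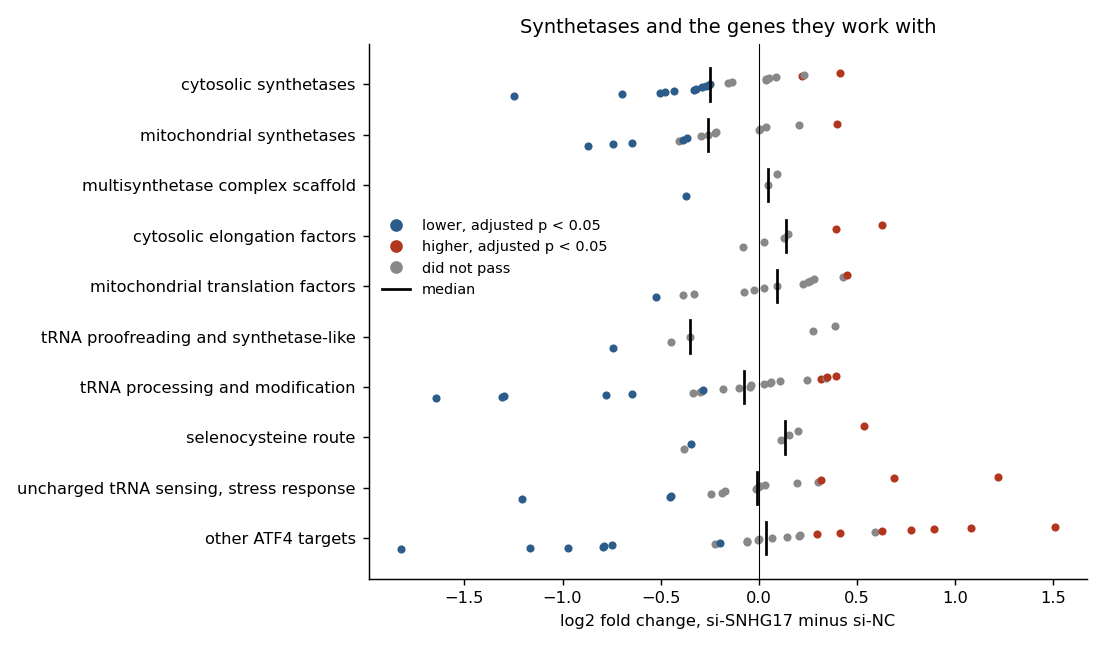
Log2 fold changes (si-SNHG17 minus si-NC) of the tested synthetases and of 8 lists of related genes, 1 point a gene, with black bars at the medians and colours for calls at an adjusted p of 0.05 by edgeR. The synthetase medians lie at -0.25 (cytosolic) and -0.26 (mitochondrial), and the other ATF4 targets spread from -1.82 to 1.51.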

How the data were processed

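Raw counts per gene were deposited for 54261 rows and 6 libraries. The submitters' processing notes name the build GRCh38; the aligner, counter, annotation and strand use were not given in the sources used here. Groups and columns came from the titles. The test was that of edgeR 4.0.16 under R 4.3.3 (filterByExpr, TMM, glmQLFit and glmQLFTest, group as the only term), with Benjamini-Hochberg adjustment over 15614 genes and a threshold of 0.05. The procedure was tested on simulated data. A count of 0 allowed 3 counts, 0.240 to 0.347 CPM, covering counting error only. The members, the 8 partner lists and the motifs were chosen with earlier results of these data known. By rule, every member was accounted for, those called and the 4 uncalled ones with the highest counts by library, and up to 4 genes of smallest p per list. Positions and lengths came from GENCODE 29, and promoters from RefSeq (GRCh38.p14). Alternatives were other scalings, filters and tests (DESeq2 1.42.0, limma 3.58.1), a 2-fold requirement, a replicate block, leaving out each library and, added after seeing the data, mRNA rows only. Figures used matplotlib 3.10.9.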

Additional observations from a re-analysis of the deposited data

How the results depend on the processing

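SNHG17 was lower in each of 14 alternatives (-2.37 to -2.04 on the log2 scale). Without 1 library in turn, 11 to 20 synthetases were called, 1 to 3 higher and 10 to 17 lower; the cytosolic counts were 8 to 13 (1 to 2 higher, 7 to 11 lower) and the mitochondrial counts 3 to 7 (0 to 1 higher, 3 to 6 lower), and all genes called numbered 4911 to 6601. Requiring 2-fold left 1465 genes, 697 higher and 768 lower, and 1 synthetase, WARS, which is cytosolic and lower (0 higher and 0 mitochondrial), by construction. The higher cytosolic calls were 1 with no low-count filter and 1 with mRNA rows only, and the higher mitochondrial calls 0 with DESeq2, which was run on 29410 genes with its own filter, so that the genes tested changed with the test; the causes were not tested. The replicate block left 15 synthetases, 1 higher and 14 lower, with 1 higher cytosolic and 0 higher mitochondrial calls; it lost DARS (adjusted p = 0.0817), LARS (0.0743), NARS2 (0.0589), PARS2 (0.0664) and DTD1 (0.068) and gained RIDA (0.0324). Libraries of like number had correlations of deviations of 0.06, -0.11 and -0.09, and none had its highest correlation with the like-numbered library, so the numbers were not taken to pair them. Some values near 0 turned sign without passing: AARS2 with the replicate block (-0.0017), with mRNA rows only (-0.0228), and without 1 library (-0.1113 to 0.0749; below 0 without si-SNHG17 replicate 2 and without si-NC replicate 3); FARS2 with mRNA rows only (-0.0299), and without 1 library (-0.0984 to 0.131; below 0 for si-SNHG17 replicate 3 and both si-NC replicates 1 and 2); CARS without 1 library (-0.0056 to 0.0597; below 0 for si-NC replicate 2); and EEF1E1 (-0.0368 to 0.1155; below 0 for replicate 1 of either group). Of 525 synthetase values in 15 alternatives, 464 kept direction and side of the threshold, 48 lost it, 4 gained it and 9 turned sign. YARS2, with at most 3 counts a library, could not be tested; whether depth or counting set this was not tested.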
